A study of Homo sapiens with 32 samples.

Results

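The 10 genes described here encode carriers that move amino acids across the plasma membrane: SLC7A11, SLC7A5, SLC3A2, SLC7A1, SLC38A1, SLC38A2, SLC1A4, SLC1A5, SLC6A9 and SLC43A1. They were chosen by name, with earlier results of these data known, and all 10 were found among the 29744 genes of the deposited table. All 10 passed the filter on low counts in both cell lines. They lie apart in the genome, except that SLC38A1 (chr12:46183063-46269043) and SLC38A2 (chr12:46358188-46372773, RefSeq GRCh38.p14) are close neighbours. RNA-seq was done on 32 libraries from a pair of human prostate cancer lines. LNCaP was derived from a lymph node metastasis and responds to androgen. C4-2B is a castration-resistant, bone-metastatic derivative of LNCaP. Each line was given a control siRNA (siCTRL) or siRNA against MOCOS (siMOCOS), the molybdenum cofactor sulfurase, and was kept with vehicle or exposed to thapsigargin (TG), with 4 libraries in each of the 8 groups. Thapsigargin blocks the calcium pump of the endoplasmic reticulum and causes stress there. No dose or exposure time for it is stated in the labels. All groups were grown in RPMI medium with serum and added L-glutamine, so the amino acid supply of the medium was shared. The labels name a pair of siRNAs against MOCOS, but the table's knockdown columns are only numbered, so the siRNA of a column cannot be told and the 4 columns of a line and drug were taken as 1 group.

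Amino acid carriers of the plasma membrane decide which amino acids a cell can take up, and several work as exchangers that need another amino acid in return. SLC7A11 and SLC7A5 are light chains that reach the membrane only when joined to the heavy chain SLC3A2. In stressed cells, phosphorylation of the initiation factor eIF2 favours translation of ATF4, a transcription factor that, with partners of the C/EBP family, acts on genes for amino acid uptake and synthesis; this arm is called the integrated stress response.

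The promoter letters of the transporters are shown first because the members were followed through a stress response. RefSeq promoter windows (GRCh38.p14, 250 bases before to 50 bases from each transcript start) were found for 9 of the 10 genes, in 16 windows; SLC7A11 had none in the table used. The core letters of the composite ATF4 and C/EBP site, TGATGNAA, were searched on both strands. They occurred in windows of 5 of the 9 genes, against 3.62% of all 35116 windows and 4.46% of the 27305 genes with a window. Each stretch below runs 5′ to 3′ on the strand of its gene, with the motif in capitals. In SLC1A4 and SLC3A2 the motif lies on the opposite strand, so its complement is read.
SLC38A1 (chr12:46266502-46266531, minus strand): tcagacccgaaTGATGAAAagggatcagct
SLC7A1 (chr13:29595663-29595692, minus strand): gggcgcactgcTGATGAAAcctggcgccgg
SLC1A5 (chr19:46784893-46784922, minus strand): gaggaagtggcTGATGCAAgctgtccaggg
SLC1A4 (chr2:64989381-64989410, plus strand): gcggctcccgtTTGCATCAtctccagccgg
SLC3A2 (chr11:62881719-62881748, plus strand): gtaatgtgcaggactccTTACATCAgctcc
SLC38A1 and SLC7A1 carried the same 8 letters, and SLC1A5 and SLC1A4 carried the same 8 letters on opposite strands. In SLC1A4, SLC38A1 and SLC1A5 the first motif base lies 7, 4 and 97 bases before the transcript start of its window. In SLC7A1 and SLC3A2 it lies at base 8 and base 38 from that start. For SLC7A1 that start is the outer end of the RefSeq gene. For SLC1A4 (chr2:64988479-65023865), SLC38A1, SLC1A5 (chr19:46774883-46788594) and SLC3A2 (chr11:62856109-62888860) it lies inside the gene, downstream of the outermost start. Among the other 4 genes with windows (SLC7A5, SLC38A2, SLC6A9 and SLC43A1) these letters were not found. The core of the antioxidant response element, TGACNNNGC, was found in windows of 4 genes (SLC3A2, SLC7A1, SLC7A5 and SLC1A5), against 16.1% of all genes with a window. The XBP1 core TGACGTGG was found in none of the 16 windows and in 0.729% of all windows. These matches describe letters and not bound sites.

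The libraries held 7.51e+06 to 2.71e+07 estimated counts each. MOCOS was lower in all 16 knockdown libraries than in the siCTRL libraries of the same line and drug, with group means of 3.42 to 14.8 CPM (counts-per-million, scaled by TMM) against 24.3 to 96.1 CPM. Luminal prostate markers were present in every library (8 of 8, summed level 2601 to 6613 CPM without TG and 1528 to 2993 CPM with TG). With TG 5 of the 8 fell in each line, and 1 rose in LNCaP. Markers of other cell types were low: the summed basal list (3 genes) reached 0.887 CPM without TG and 3.87 CPM with TG, the stromal list (4 genes) 10.1 and 23.8 CPM, the neuroendocrine list (3 genes) 6.75 and 21.3 CPM, and the endothelial list (3 genes) 6.67 and 9.12 CPM. Of these, INSM1 and COL1A2 were at 0 in every library, and KRT5, CHGA, DCN, LUM, PECAM1 and CDH5 did not pass 0.450 CPM. The immune and blood list (3 of 4 genes in the table) did not pass 0.150 CPM. The basal, stromal, neuroendocrine and endothelial values above 1 CPM came from TP63, COL1A1, SYP and VWF, and their part in the results was not tested. In 6 siCTRL libraries departures of gene levels from the mean of the group followed transcript length with a correlation past 0.4 in size: C4-2B siCTRL replicates 2 and 4, C4-2B siCTRL TG replicates 2 and 3, and LNCaP siCTRL TG replicates 2 and 4. Without these 6 no member gained or lost its call with TG in siCTRL cells of either line, and values that moved are given beside their results. Departures followed GC content past the same limit in 10 libraries, 5 of them knockdown libraries and 3 of them among the 6, with correlations from -0.69 (C4-2B siCTRL replicate 1) to 0.60 (C4-2B siCTRL replicate 4). In bulk RNA, fewer cells of a kind and less RNA per cell cannot be told apart.

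TG raised most of the transporters. In siCTRL cells 8 of 10 rose in C4-2B and 9 of 10 rose in LNCaP, none fell, and SLC43A1 was the member not called in either line. Calls were made by edgeR's quasi-likelihood test where the p, adjusted over all genes by Benjamini-Hochberg, was below 0.05. Of all genes tested, 21.2% rose and 19.3% fell in C4-2B, and 24.6% rose and 25.1% fell in LNCaP. The median log2 change of the 10 was 0.71 in C4-2B and 1.29 in LNCaP, against -0.0091 and -0.038 over all genes. In siMOCOS cells 9 of 10 rose with TG in each line, again all but SLC43A1, where 20.7% of genes rose and 17.2% fell in C4-2B and 25.1% rose and 21.9% fell in LNCaP. The medians there were 1.33 and 1.69.

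**Figure D1:**
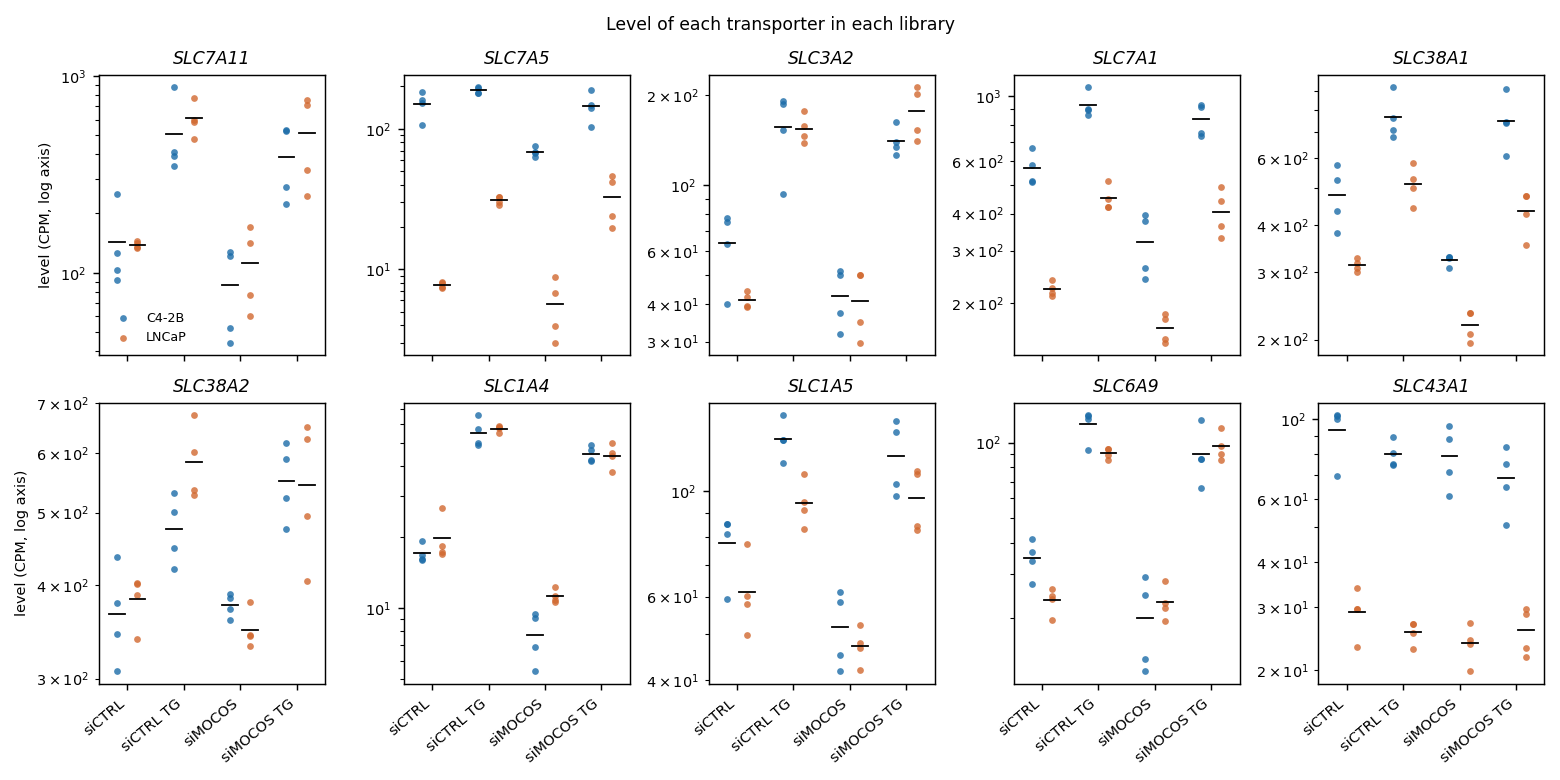
Level of each transporter in each of the 32 libraries, in CPM on a log axis, by siRNA and drug; points are libraries, bars are arithmetic means of 4, and axes differ between panels. The TG groups sit above the groups without TG for most genes, SLC43A1 does not follow, and SLC7A5 and SLC43A1 are lower in LNCaP than in C4-2B.

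SLC7A11 is the light chain of the exchanger that brings in cystine for glutamate, and cystine supplies cysteine for glutathione. Its level in C4-2B siCTRL was 126, 252, 103 and 92.2 CPM in replicates 1 to 4, and with TG 347, 413, 876 and 393 CPM. The groups did not overlap, but replicate 2 without TG and replicate 3 with TG stood far above the others, and both are libraries whose deviations followed transcript length (correlations of 0.518 and 0.554; the longest SLC7A11 transcript has 9645 bases). The log2 change was 1.82 with a standard error of 0.42 (3.52-fold, adjusted p = 0.0026), and 1.73 (adjusted p = 0.037) without the libraries that followed length. In LNCaP siCTRL the level was even, at 144, 133, 142 and 136 CPM, and rose to 587, 479, 598 and 770 CPM with TG. This was a change of 2.13 ± 0.34 (SE; adjusted p = 4.6e-05).

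SLC3A2, the heavy chain also known as CD98hc, rose in both lines. In C4-2B siCTRL it lay at 63.4, 40.1, 75.2 and 77.7 CPM, and with TG at 152, 190.0, 93.5 and 187 CPM. The lowest value of each group came from the library in which SLC7A11 was highest. The change was 1.28 ± 0.23 (SE; adjusted p = 0.00032), and 1.33 (adjusted p = 0.0025) without the libraries that followed length. In LNCaP SLC3A2 went from 42.2, 39.6, 44.4 and 39.1 CPM to 157, 176, 146 and 138 CPM, a change of 1.90 ± 0.17 (adjusted p = 6.5e-08), with no overlap in either line.

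SLC7A5, also known as LAT1, is the light chain that exchanges large neutral amino acids such as leucine, often for glutamine. It separated the lines more than any other member. In C4-2B siCTRL it stood at 107, 182, 161 and 153 CPM, and with TG at 180, 194, 179 and 197 CPM. These values overlapped, and the change of 0.31 ± 0.17 did not pass (adjusted p = 0.16). With a correction for transcript length and GC content it was 0.55 and passed (adjusted p = 0.00059). In LNCaP siCTRL the level was only 7.49, 7.94, 7.41 and 8.14 CPM and rose to 32.5, 32.5, 28.5 and 30.3 CPM, or 2.00 ± 0.27 (4.01-fold, adjusted p = 8.2e-06). Even with TG, each LNCaP siCTRL library was below each C4-2B siCTRL library without TG. The gain with TG was larger in LNCaP by 1.68 ± 0.33 on the log2 scale (adjusted p = 0.0085), a difference for which 0.848% of all genes were called and no other member was. Without the 6 libraries that followed transcript length the difference was 1.52 and did not pass (adjusted p = 0.44), in a fit with fewer libraries.

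SLC7A1, the carrier of arginine, lysine and ornithine also known as CAT1, was abundant in both lines. In C4-2B siCTRL its level was 510, 668, 583 and 514 CPM without TG and 861, 897, 1068 and 899 CPM with TG, a change of 0.71 ± 0.16 (SE; adjusted p = 0.0021). LNCaP siCTRL libraries held 216, 224, 211 and 238 CPM, and 450, 421, 422 and 514 CPM with TG, a change of 1.03 ± 0.12 (adjusted p = 1.8e-06). In neither line did the groups overlap, and the LNCaP levels with TG did not reach those of C4-2B without TG except for replicate 4, which passed C4-2B replicate 1 narrowly.

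SLC38A1 and SLC38A2 are sodium-coupled carriers of small neutral amino acids such as glutamine and alanine. SLC38A1 in C4-2B siCTRL rose from 526, 575, 434 and 381 CPM to 711, 680, 920 and 765 CPM, by 0.68 ± 0.14 (adjusted p = 0.0011). In LNCaP it rose from 328, 309, 301 and 317 CPM to 499, 442, 529 and 581 CPM, by 0.71 ± 0.11 (adjusted p = 2.3e-05). SLC38A2 changed least among the members that rose. In C4-2B its range of 307 to 436 CPM overlapped the range of 420 to 531 CPM with TG, and the change was 0.37 ± 0.12 (adjusted p = 0.022). That call was lost with the length and GC correction (0.15, adjusted p = 0.17) and without any 1 of C4-2B siCTRL replicates 3 or 4 or C4-2B siCTRL TG replicates 3 or 4, where the adjusted p was 0.054 to 0.075. In LNCaP SLC38A2 moved from 339 to 403 CPM up to 527 to 675 CPM, with no overlap (0.61 ± 0.13, adjusted p = 0.00071).

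SLC1A4 and SLC1A5 are the exchangers ASCT1 and ASCT2, which carry alanine, serine and cysteine, and in the case of SLC1A5 also glutamine. SLC1A4 was the least abundant member in C4-2B and among those with the largest gains. Its level there went from 16.1, 19.3, 15.99 and 16.9 CPM to 49.9, 57.3, 65.6 and 49.1 CPM (1.70 ± 0.16, adjusted p = 5.9e-07). In LNCaP it went from 16.9, 18.3, 17.4 and 26.6 CPM to 55.2, 57.8, 59.1 and 58.6 CPM (1.55 ± 0.13, adjusted p = 4.2e-08). The TG levels of the lines were alike in range, and replicate 4 of LNCaP siCTRL stood above its group.

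SLC1A5 moved less than SLC1A4 in both lines. In C4-2B siCTRL it rose from 59.2, 85.0, 81.3 and 85.3 CPM to 128, 144, 128 and 114 CPM (0.72 ± 0.17, adjusted p = 0.0022). In LNCaP it rose from 49.8, 60.1, 57.9 and 77.5 CPM to 108, 94.6, 91.2 and 83.2 CPM (0.63 ± 0.14, adjusted p = 0.00092). The groups did not overlap in either line; the nearest LNCaP libraries were at 77.5 CPM without TG and 83.2 CPM with TG.

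SLC6A9, the sodium- and chloride-dependent glycine transporter GLYT1, rose 3.38-fold in C4-2B and 3.85-fold in LNCaP. In C4-2B siCTRL it was at 27.4, 33.7, 36.8 and 41.3 CPM and with TG at 127, 128, 93.2 and 124 CPM (1.76 ± 0.25, adjusted p = 3.4e-05). In LNCaP it was at 24.5, 23.9, 26.2 and 19.7 CPM and with TG at 89.5, 94.0, 85.5 and 94.2 CPM (1.95 ± 0.13, adjusted p = 1.5e-09). Its 4 LNCaP values with TG lay close together.

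SLC43A1, or LAT3, carries branched-chain amino acids and phenylalanine without a heavy chain. In C4-2B siCTRL it was at 69.4, 100.03, 103 and 102 CPM and with TG at 80.5, 89.5, 74.7 and 74.9 CPM. In LNCaP it was at 23.3, 29.6, 34.0 and 29.6 CPM and with TG at 25.4, 26.99, 23.0 and 26.9 CPM. The groups overlapped in both lines, and the changes of -0.23 ± 0.18 (adjusted p = 0.31) and -0.18 ± 0.14 (adjusted p = 0.29) were not called. In siMOCOS cells it changed with TG by -0.17 ± 0.18 and 0.17 ± 0.14, which did not pass either (adjusted p = 0.48 and 0.33).

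**Figure D2:**
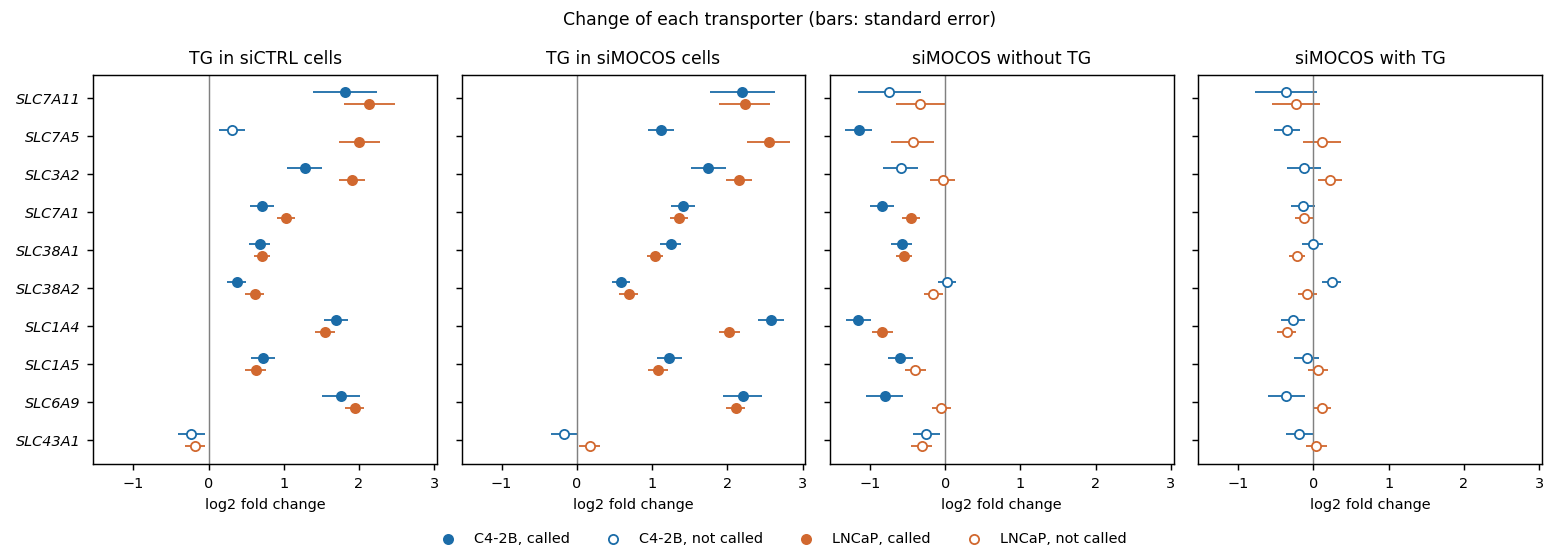
Log2 fold change of each transporter in 4 comparisons, with bars of 1 standard error; filled points were called at an adjusted p under 0.05 in edgeR's test and open points were not, C4-2B in blue and LNCaP in orange. The TG changes lie right of 0 for all but SLC43A1, the knockdown changes without TG lie mostly left of 0, and those with TG lie near 0 with none called.

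Knockdown of MOCOS without TG lowered 6 of the 10 in C4-2B and 3 in LNCaP, and raised none. SLC7A1, SLC38A1 and SLC1A4 fell in both lines; SLC7A5, SLC1A5 and SLC6A9 fell in C4-2B. Among all genes of C4-2B 8.14% fell and 9.09% rose, while for LNCaP 9.73% fell and 6% rose. The median of the members was -0.67 in C4-2B and -0.36 in LNCaP, against 0.0028 and -0.022 over all genes. These tests take the 4 knockdown columns as equal replicates. Over all genes, however, columns 1 and 2 and columns 3 and 4 formed 2 sets in each knockdown group. Chi-square per gene was 5.19 to 10.7 within a set and 21.0 to 35.7 across sets in LNCaP siMOCOS. In C4-2B siMOCOS it was 10.9 to 11.03 and 65.1 to 78.5. The labels list 2 siRNAs with 2 libraries each. Pairs of siCTRL libraries were also spread, at 5.38 to 58.2 in C4-2B siCTRL and 13.9 to 55.9 in LNCaP siCTRL. With TG the siCTRL pairs were at 7.64 to 97.4 in C4-2B and 8.73 to 44.4 in LNCaP. The cause of either spread was not tested. Luminal and androgen genes moved as well with knockdown alone: of 18 androgen receptor targets 7 rose and 1 fell in C4-2B, while 6 rose and 2 fell in LNCaP. The summed luminal list went from 2601 to 2731 CPM up to 3387 to 4683 CPM in C4-2B without overlap, and in LNCaP it was 4759 to 5261 CPM against 5083 to 6613 CPM. Their part in the changes of the transporters was not tested.

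SLC1A4 and SLC7A5 fell most in C4-2B. SLC1A4 stood at 6.84, 5.44, 9.13 and 9.42 CPM in the 4 knockdown libraries, all below the siCTRL libraries (-1.16 ± 0.17, adjusted p = 8.5e-05). SLC7A5 stood at 62.7, 66.8, 75.7 and 68.5 CPM, also without overlap (-1.15 ± 0.18, adjusted p = 0.00017). SLC7A1 was at 240, 263, 397 and 378 CPM, again below every siCTRL library (-0.84 ± 0.16, adjusted p = 0.0013). SLC38A1 lay within a narrow range of 309 to 330 CPM, below the lowest siCTRL library (-0.58 ± 0.14, adjusted p = 0.0088). The falls of SLC1A5 (-0.60 ± 0.17, adjusted p = 0.019) and SLC6A9 (-0.81 ± 0.25, adjusted p = 0.034) came from overlapping groups. SLC1A5 was at 41.9, 45.2, 58.5 and 61.3 CPM in knockdown columns 1 to 4, against 59.2 to 85.3 CPM with siCTRL. SLC6A9 was at 12.4, 13.8, 29.1 and 24.9 CPM, against 27.4 to 41.3 CPM. For both genes columns 1 and 2 lay below every siCTRL library, while SLC1A5 in column 4 and SLC6A9 in column 3 lay within the siCTRL range. Both calls were lost with upper quartile scaling and without the libraries that followed transcript length (adjusted p = 0.28 and 0.27), with log2 changes of -0.42 and -0.65. They were also lost without C4-2B siCTRL replicate 2 or 4, or siMOCOS replicate 1 or 2, and for SLC6A9 without siCTRL replicate 3 (adjusted p = 0.051 to 0.11).

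In LNCaP SLC1A4 was at 10.8, 10.7, 12.4 and 11.3 CPM in the knockdown libraries, against 16.9 to 26.6 CPM with siCTRL (-0.83 ± 0.14, adjusted p = 0.00059). SLC38A1 was at 234, 196, 207 and 235 CPM, below all siCTRL libraries (-0.55 ± 0.11, adjusted p = 0.0019). SLC7A1 was at 150, 146, 177 and 183 CPM, also without overlap (-0.46 ± 0.12, adjusted p = 0.015). That call was lost without siMOCOS replicate 2 (adjusted p = 0.056). SLC1A5 just missed the threshold (-0.39 ± 0.14, adjusted p = 0.059). It passed without LNCaP siCTRL replicate 1 (adjusted p = 0.033) and with the length and GC correction (-0.59, adjusted p = 0.011). For SLC6A9 the value was -0.05 ± 0.13 (adjusted p = 0.82).

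The difference between lines in the knockdown response without TG was called for none of the 10, where 0.157% of all genes were called. At an unadjusted p under 0.05 there were 2 members, SLC6A9 (0.77 ± 0.29) and SLC7A5 (0.73 ± 0.34), against 1723 of 14628 genes tested. DESeq2 and limma voom also called 0 members. The counts of 6 and 3 are therefore not shown to differ.

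With TG, knockdown changed none of the 10 in either line by edgeR's test. In C4-2B 7.6% of genes fell and 9.21% rose with knockdown under TG, and in LNCaP 10.2% fell and 11.7% rose. At an unadjusted p under 0.05 there were 0 members in C4-2B, against 4223 of 14127 genes tested. In LNCaP there was 1, against 4973 of 13806 genes. That member was SLC1A4, with 37.8, 44.1, 49.9 and 45.5 CPM against 55.2 to 59.1 CPM, which did not overlap (-0.36 ± 0.13, adjusted p = 0.055). DESeq2 and limma voom called it (adjusted p = 0.025 and 0.022) and called no other member in these comparisons. It also passed without LNCaP siCTRL replicate 4 or siMOCOS TG replicate 3 (adjusted p = 0.014 and 0.024), and without siCTRL TG replicate 2 SLC38A1 passed instead (-0.31, adjusted p = 0.044). Between the lines, the knockdown response under TG differed for none of the 10 at either the adjusted or an unadjusted p under 0.05. Of all genes 0.431% were called, and 2246 of 14628 had an unadjusted p under 0.05.

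The test of whether knockdown changed the TG response called none of the 10 in C4-2B or LNCaP, where 0.0708% and 0.00724% of all genes were called. All 10 estimates were above 0 in both lines, meaning a TG change that was more positive in siMOCOS cells than in siCTRL cells. Over all genes 7603 of 14127 were above 0 in C4-2B and 8068 of 13806 in LNCaP. The medians of the members were 0.49 and 0.33, against 0.025 and 0.049 over all genes. Members other than SLC43A1 followed each other over the libraries, so the 10 signs are not independent. At an unadjusted p under 0.05 there were 5 members in C4-2B, against 982 of 14127 genes tested. In LNCaP there were 3, against 918 of 13806 genes. The largest in C4-2B was SLC1A4 (0.88 ± 0.23, adjusted p = 0.19), followed by SLC7A5 (0.80 ± 0.25, adjusted p = 0.30) and SLC7A1 (0.71 ± 0.23, adjusted p = 0.34). DESeq2 called SLC1A4 in C4-2B (adjusted p = 0.039), and limma voom called none. With the length and GC correction SLC1A4, SLC7A5 and SLC38A1 passed in C4-2B (adjusted p = 0.042, 0.034 and 0.031). These values share the knockdown and control libraries with the comparisons above.

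**Figure D3:**
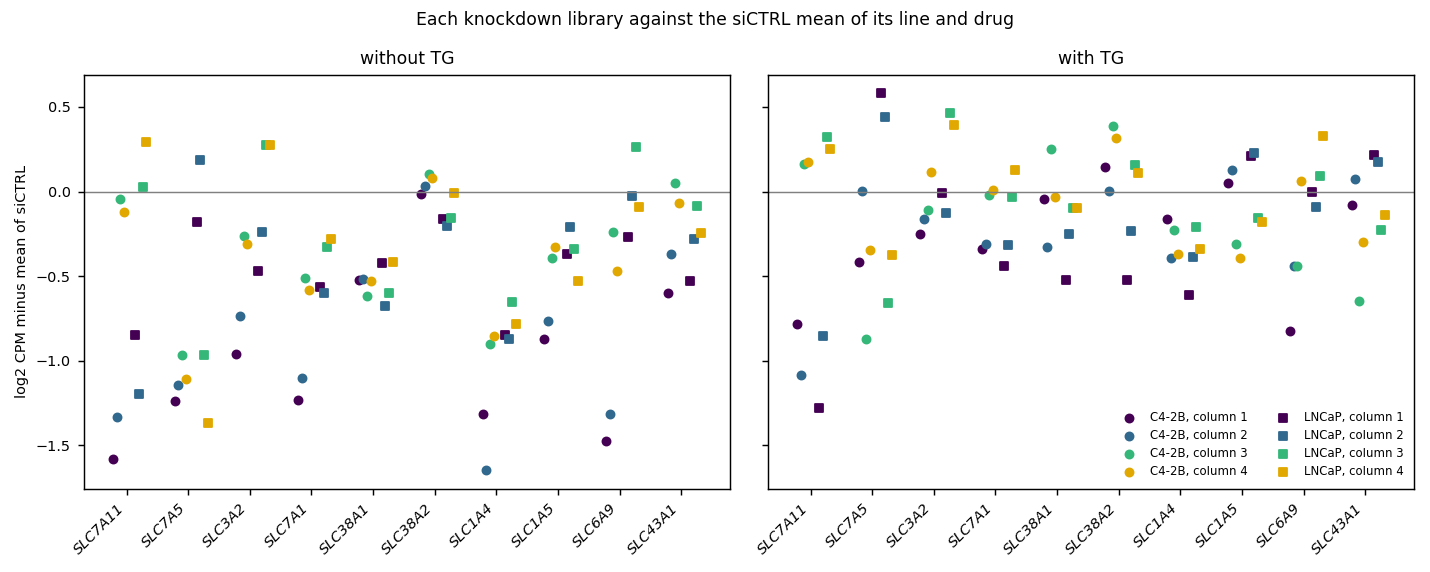
Each of the 16 knockdown libraries as log2 CPM minus the mean of the siCTRL libraries of its line and drug, for each transporter; circles are C4-2B, squares are LNCaP, and colours give the column number. Columns 1 and 2 of SLC7A11 lie well below columns 3 and 4 in both lines with and without TG, and SLC7A5 in LNCaP runs the other way.

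The split of the knockdown columns, seen over all genes, showed in the levels of several members. SLC7A11 in C4-2B siMOCOS was at 44.0, 52.3, 128 and 121 CPM in columns 1 to 4, and with TG at 273, 223, 527 and 533 CPM. In LNCaP siMOCOS it was at 77.1, 60.6, 141 and 170 CPM, and with TG at 247, 331, 751 and 713 CPM. Columns 1 and 2 were the low ones in all 4 groups. The pooled knockdown changes of SLC7A11 were -0.74 ± 0.42 in C4-2B and -0.33 ± 0.33 in LNCaP without TG, and neither passed (adjusted p = 0.25 and 0.53). SLC3A2 without TG was likewise lower in columns 1 and 2, at 31.9 and 37.3 CPM against 51.8 and 50.0 CPM in C4-2B, and at 29.8 and 34.9 CPM against 49.9 and 50.0 CPM in LNCaP. SLC3A2 did not pass in C4-2B (-0.59 ± 0.23, adjusted p = 0.086). It passed without C4-2B siCTRL replicate 2 (-0.76, adjusted p = 0.028) or siCTRL TG replicate 3 (adjusted p = 0.044), in 1 fit of all 32 libraries (adjusted p = 0.042) and with the length and GC correction (adjusted p = 0.031). SLC7A5 ran the other way in LNCaP, with 6.82 and 8.79 CPM in columns 1 and 2 and 3.96 and 3.00 CPM in columns 3 and 4. With TG its LNCaP columns held 46.2 and 42.03 CPM against 19.6 and 23.8 CPM. Which siRNA each column received cannot be told, so no test was made between columns.

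Without TG or knockdown, 6 of the 10 were lower in LNCaP than in C4-2B and none was higher. Over all genes, 20.1% were lower and 21.1% higher. SLC7A5 differed most, with a mean of 7.74 ± 0.353 CPM (SD, n = 4) against 151 ± 31.7 CPM, a 19.4-fold difference (log2 -4.28 ± 0.26 SE, adjusted p = 3.5e-14). SLC43A1, the other carrier of large neutral amino acids, was 3.22-fold lower (-1.69 ± 0.16, adjusted p = 8.9e-10). SLC7A1 was 2.56-fold lower (-1.36 ± 0.14, adjusted p = 8.0e-09). For these 3 genes the lines did not overlap. SLC38A1 (-0.61 ± 0.13, adjusted p = 0.00028), SLC3A2 (-0.63 ± 0.21, adjusted p = 0.015) and SLC6A9 (-0.56 ± 0.20, adjusted p = 0.028) differed by smaller amounts. The lines did not overlap for SLC38A1 and SLC6A9 either, but did for SLC3A2. The SLC3A2 call was lost without C4-2B siCTRL replicate 4 (adjusted p = 0.063), and the SLC6A9 call without that library or LNCaP siCTRL replicate 4 (adjusted p = 0.097 and 0.091). Both were lost with the length and GC correction (adjusted p = 0.074 and 0.15), and that of SLC6A9 also without the libraries that followed transcript length (adjusted p = 0.19). SLC7A11, with 139 ± 5.09 CPM in LNCaP and 143 ± 73.6 CPM in C4-2B (SD, n = 4), gave a difference of -0.05 ± 0.40. SLC1A5 was not called (-0.34 ± 0.15, adjusted p = 0.072), but passed with DESeq2 (adjusted p = 0.044) and without C4-2B siCTRL replicate 1 or LNCaP siCTRL replicate 4 (adjusted p = 0.020 for each). It also passed narrowly without C4-2B siMOCOS TG replicate 3 or siMOCOS replicate 4 (adjusted p = 0.049 and 0.048), libraries that enter only the estimate of spread.

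Levels of different genes were compared as CPM per kilobase of the longest transcript, in siCTRL cells without TG. In C4-2B the highest were SLC7A1 at 77.4 ± 10.1 (SD, n = 4), SLC38A2 at 74.9 ± 11.2 and SLC38A1 at 59.4 ± 10.9. SLC43A1 (36.0 ± 6.22), SLC7A5 (33.2 ± 6.99), SLC3A2 (28.9 ± 7.72) and SLC1A5 (26.96 ± 4.33) followed, each within the spread of its neighbour. SLC7A11 (14.9 ± 7.63) and SLC6A9 (11.1 ± 1.86) did not differ beyond their spread, and SLC1A4 was lowest at 3.75 ± 0.339. In LNCaP the order began with SLC38A2 at 78.4 ± 6.12, SLC38A1 at 38.9 ± 1.46 and SLC7A1 at 30.3 ± 1.62. SLC1A5 (21.3 ± 4.05) and SLC3A2 (18.6 ± 1.10) lay within their spread of each other, and SLC7A11 was at 14.4 ± 0.528. SLC43A1 (11.2 ± 1.70), SLC6A9 (7.54 ± 0.884) and SLC1A4 (4.34 ± 1.01) came next, and SLC7A5 was last at 1.71 ± 0.0777. The order depends on the transcript taken. Per kilobase of the median transcript SLC38A1 (165) and SLC38A2 (131) led in C4-2B ahead of SLC7A1 (77.4), SLC1A5 (39.8) lay above SLC43A1 (37.8), and SLC6A9 (16.1) above SLC7A11 (14.9). In LNCaP SLC1A5 (31.4) then lay above SLC7A1 (30.3).

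Ratios of 2 members within a library do not depend on the scaling between libraries. SLC7A5 to SLC3A2 had a median of 2.05 in C4-2B siCTRL and 0.189 in LNCaP siCTRL. These are ratios of counts, which also depend on transcript length. The longest transcripts have 4537 bases for SLC7A5 and 2222 bases for SLC3A2. Per kilobase of these, the C4-2B siCTRL means lay within their spread of each other (33.2 ± 6.99 and 28.9 ± 7.72, SD, n = 4). In LNCaP siCTRL the light chain was lower per kilobase too (1.71 ± 0.0777 against 18.6 ± 1.10). SLC38A2 to SLC38A1 ranged from 0.719 to 0.806 in C4-2B siCTRL, fell to 0.577 to 0.655 with TG, and was 1.09 to 1.26 in siMOCOS cells without TG. The groups did not overlap, and each gave an exact two-sided permutation p of 0.0286, the smallest that 4 against 4 libraries can give. Over the 32 ratio comparisons made, the smallest Benjamini-Hochberg adjusted exact p was 0.083, so none passed.

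Most of the other carriers listed did not rise with TG. Members and lists were chosen with earlier results of these data known, so their contrast is a description and not a test. Over all genes 21.2% rose and 19.3% fell in C4-2B, and 24.6% rose and 25.1% fell in LNCaP. Of 32 other plasma membrane amino acid transporters, 13 passed the filter in each line. With TG in siCTRL cells 2 of the 13 rose and 7 fell in C4-2B, 0 rose and 8 fell in LNCaP, and the medians were -0.59 and -0.90. SLC6A6, SLC7A8 and SLC1A3 had the largest falls on average over the lines among those of at least 5 CPM called in both. SLC6A6, the taurine transporter, fell from 21.9 ± 2.22 to 10.2 ± 1.55 CPM (SD, n = 4) in C4-2B and from 17.4 ± 0.996 to 4.57 ± 0.360 CPM in LNCaP (log2 -1.10 and -1.92, adjusted p = 0.013 and 2.2e-07). SLC7A8, or LAT2, which like SLC7A5 is a light chain of SLC3A2, fell from 244 ± 20.2 to 122 ± 2.98 CPM and from 218 ± 21.8 to 96.0 ± 3.64 CPM (log2 -1.01 and -1.18, adjusted p = 0.0033 and 0.00013). SLC1A3, a glutamate transporter, fell by 0.90 and by 1.05 on the log2 scale (adjusted p = 0.00029 and 0.0059).

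**Figure D4:**
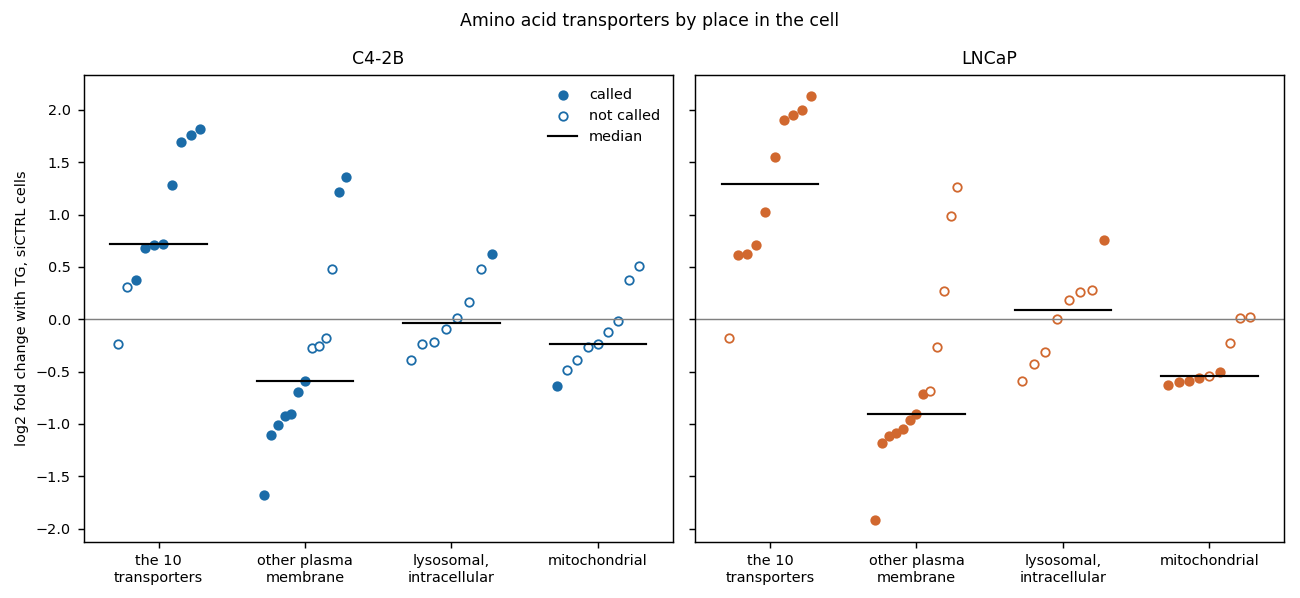
Log2 fold change with TG in siCTRL cells for the 10 transporters, other plasma membrane amino acid transporters, lysosomal or other intracellular ones and mitochondrial carriers; each point is a gene that passed the filter, filled where called, and bars are medians. The 10 have medians of 0.71 and 1.29 for C4-2B and LNCaP, against -0.59 and -0.90 for the other plasma membrane carriers. All lists were chosen with earlier results of these data known.

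Transporters of inner membranes were counted in the same way. Of 8 lysosomal or other intracellular transporters tested, 1 rose with TG in each line and 0 fell. These counts depend on where a carrier is listed. SLC36A1, called lower in both lines (mean log2 change -0.71), was counted with the plasma membrane carriers. The gene that rose was SLC36A4, of the same SLC36 family of amino acid carriers. It went from 11.02 ± 2.26 to 17.0 ± 2.29 CPM in C4-2B and from 8.56 ± 0.991 to 14.4 ± 3.26 CPM in LNCaP (SD, n = 4). Of 9 mitochondrial carriers, 1 fell in C4-2B, 5 fell in LNCaP and 0 rose. With knockdown alone, 1 of the 13 other plasma membrane carriers rose in C4-2B and 2 rose in LNCaP, and none fell. Of all genes 9.09% and 6% rose there.

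Lists of genes around amino acid supply held genes that rose and genes that fell with TG, as did all genes tested. Over all genes 21.2% rose and 19.3% fell in C4-2B, and 24.6% rose and 25.1% fell in LNCaP. Of 14 kinases and factors of the integrated stress response, 10 rose and 1 fell in each line. TRIB3, a pseudokinase induced under stress, rose by 2.26 ± 0.14 (SE) in C4-2B and 2.71 ± 0.13 in LNCaP (adjusted p = 7.0e-09 and 2.8e-11). With knockdown alone 4 of the 14 fell in C4-2B, 2 fell in LNCaP, and 0 rose. Of all genes 8.14% and 9.73% fell there. TRIB3 then changed by -0.95 ± 0.14 and -0.67 ± 0.13 (adjusted p = 0.00014 and 0.0019). Of 11 genes of cystine use and glutathione, 1 rose and 4 fell in C4-2B, and 3 rose and 3 fell in LNCaP. CTH, which makes cysteine from cystathionine, was the one that rose in C4-2B (1.91 ± 0.17, adjusted p = 2.5e-07) and also rose in LNCaP (1.76 ± 0.13, adjusted p = 7.0e-09). Of 12 genes of glutamine use, 4 rose and 2 fell in C4-2B, and 4 rose and 4 fell in LNCaP. ASNS, asparagine synthetase, rose with TG (1.77 ± 0.19 and 1.47 ± 0.08) and fell with knockdown alone (-0.61 ± 0.18 in C4-2B, adjusted p = 0.028; -0.86 ± 0.08 in LNCaP, adjusted p = 3.3e-06). Of 16 tested genes by which mTORC1 senses amino acids, 1 rose and 2 fell in C4-2B, and 2 rose and 6 fell in LNCaP. The one that rose in C4-2B was SESN2, a leucine-binding inhibitor of mTORC1 signalling that the stress list holds too (6.08-fold, adjusted p = 5.4e-07). Androgen receptor targets fell, 14 of 18 in C4-2B and 15 of 18 in LNCaP, and none rose.

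Across all 32 libraries, with each gene's log2 CPM centred within its line, the members other than SLC43A1 followed each other. The closest pairs were SLC7A1 with SLC1A4 (Pearson's r = 0.966) and SLC3A2 with SLC6A9 (r = 0.961). SLC43A1 had values from -0.38 with SLC38A2 to 0.15 with SLC7A5. The points share the TG contrast, the libraries and their depth, so r is given as a description with no p. Among all genes of at least 5 CPM in both lines, those most like a member were IARS for SLC38A1 (r = 0.991), the cytosolic isoleucyl-tRNA synthetase, with EPRS next (r = 0.979), and ADM2, a secreted peptide of the calcitonin family, for both SLC6A9 (r = 0.989) and SLC3A2 (r = 0.981). For the others they were LARP1B for SLC1A4 (r = 0.982), THAP5 for SLC7A11 (r = 0.974), CDR2 for SLC7A1 (r = 0.970), PSME4 for SLC38A2 (r = 0.954), SARM1 for SLC1A5 (r = 0.950), MYLK for SLC7A5 (r = 0.923) and CYC1 for SLC43A1 (r = 0.817).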

How the data were processed

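PolyA RNA of 32 libraries was sequenced from strand-specific TruSeq preparations, per the labels' protocols. The authors deposited estimated counts per gene, scaled by transcript length as the name of their table says. The submitters' processing notes list Salmon 1.5.2, STAR 2.6.1d, hg38, FastQC 0.11.9, and also cutadapt 3.4 and Trim Galore 0.6.7. Neither the annotation nor the strand setting of the counting is stated, so reads of SLC7A11, SLC7A5, SLC1A5 and SLC6A9 may be shared with overlapping genes on the other strand. The nonzero values were not whole numbers, and were rounded for the count models.

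Genes were filtered with filterByExpr and tested with edgeR 4.0.16 (R 4.3.3; TMM, quasi-likelihood F-test, Benjamini-Hochberg over all genes, threshold 0.05), on 16 libraries per line (14127 and 13806 genes) or all 32 for line differences (14628 genes). Standard errors are the unshrunk log2 change over the root of F. CPM used TMM factors of all 32 libraries; marker sums used library totals. In counts simulated for TG in siCTRL cells of C4-2B over 13920 genes, 86.5% of 200 genes changed 2-fold were recovered. The changed genes were drawn only from genes with higher counts. The simulation gave all genes the same dispersion and had no trends with length or GC content, so recovery in the real libraries may be lower. No pair of replicates was alike within sampling noise (smallest chi-square per gene 5.19). The design text calls the replicates biological, and same-numbered libraries did not deviate together. A knockdown replicate number is a column number.

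All 10 members are named, with the 3 other transporters called in the same direction in both lines that rose or fell most (mean of at least 5 CPM; 1 lysosomal carrier met the rule for a rise), at most 2 genes of each other list by adjusted p, and the genes most correlated with each member. Members and lists were chosen with earlier results of these data known. Alternatives were DESeq2 1.42.0, limma 3.58.1 voom, upper quartile scaling, no filter, length and GC correction (GENCODE release 29), 1 fit of all libraries, each library left out, and, chosen after seeing the data, leaving out the 6 libraries that followed transcript length and the length and GC correction of line differences.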

Additional observations from a re-analysis of the deposited data

Results flagged for a closer look

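In 6 of the 80 groups of 4 libraries (10 genes in 8 groups), 1 library stood apart by Dixon's 95% limit, where chance gives about 1 in 20. SLC7A11 was at 876 CPM and SLC6A9 at 93.2 CPM in C4-2B siCTRL TG replicate 3, 1 above and 1 below its group. SLC1A5 at 59.2 CPM and SLC43A1 at 69.4 CPM were low in C4-2B siCTRL replicate 1. SLC1A4 was high in LNCaP siCTRL replicate 4, at 26.6 CPM. SLC38A1 was low in C4-2B siMOCOS replicate 3, at 309 CPM, in a group that spans only 309 to 330 CPM.

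The response of SLC7A5 to TG differed between the lines, by 1.68 on the log2 scale in a test of the difference itself (edgeR, adjusted p = 0.0085), with the rise larger in LNCaP. Without the 6 libraries that followed transcript length the difference was 1.52 and did not pass (edgeR, adjusted p = 0.44), in a fit with fewer libraries.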

How the results depend on the processing

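Every member that rose with TG kept its call under each alternative run, except SLC38A2 in siCTRL cells of C4-2B. Of 140 changes of members, 137 stayed on their side of the threshold with DESeq2, 139 with limma voom, 138 with upper quartile scaling and all 140 with no filter on low counts. Fewest stayed with the length and GC correction, at 128. Leaving out the 6 libraries that followed transcript length kept 136. With a replicate block on the 8 siCTRL libraries, 7 of 10 rose with TG in C4-2B (SLC38A2 lost, 0.41, adjusted p = 0.082) and 9 in LNCaP. Of all genes, 4695 of 13372 were called in C4-2B and 7452 of 13238 in LNCaP, in either direction. The replicate numbers did not pair the libraries, with correlations of same-numbered libraries from -0.59 to 0.38. For knockdown under TG in LNCaP, 1 member was called with DESeq2, with limma voom and with the length and GC correction, and 0 to 1 when each library was left out. DESeq2, limma voom and the correction called 3566, 3438 and 2653 of the 13806 genes there. For the interaction in C4-2B, 1 was called with DESeq2 and 3 with the length and GC correction, where 86 and 87 of 14127 genes were called. With that correction 5 fell with knockdown alone in LNCaP, where 2161 of 13806 genes were called in either direction. The members added were SLC1A5 (-0.59, adjusted p = 0.011) and SLC43A1 (-0.39, adjusted p = 0.018). SLC38A2 at baseline then turned from 0.06 to -0.23 between the lines (adjusted p = 0.048). The line difference in the TG response went to 0 members without the 6 libraries that followed transcript length; the cause was not tested. At 7.51e+06 to 2.71e+07 counts a library, depth limits chiefly the least abundant values, such as SLC7A5 in LNCaP.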
